A study of Mus musculus with 18 samples.

Results

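The enzymes examined here, in the aorta of mice with Hutchinson–Gilford Progeria Syndrome (HGPS), build isoprenoids and cholesterol: Hmgcs1, Mvd, Idi1, Fdps, Fdft1, Sqle, Lss and Cyp51. They were listed by name, with earlier results of these data known, as 8 of the 54281 genes in the table, and all 8 passed the count filter that left 15210 genes to test. The libraries came from the descending aorta (intima, media and adventitia together) of 18 male C57BL/6 mice. Of these, 6 were HGPS mice, which carry LMNAG609G, a knock-in at the endogenous locus and so present in every cell type, and were 64 to 75 days old (2-mo). The comparison groups were 6 WT mice labelled 2-mo, of which 5 were 62 days old and replicate 6 was 95 days old, and 6 WT mice labelled 24-mo, aged 609 to 762 days. The WT mice were purchased, and the sources used here do not describe them as littermates of the HGPS mice. The G609G change acts on splicing, and a count per gene therefore could not check the genotype. Library totals ranged from 12413229 to 30844775 counts, and the group median was highest in HGPS.

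The pathway starts from acetyl-CoA and runs through mevalonate to the isoprenoid farnesyl diphosphate, where it branches. One branch condenses farnesyl diphosphate to squalene and on to lanosterol and cholesterol, whereas the other supplies the farnesyl and geranylgeranyl groups that anchor proteins such as Ras and the lamins to membranes. Progerin, the truncated lamin A of HGPS, keeps its farnesyl group, which links this pathway to the disease. Transcription of the pathway is driven by SREBP2, which is released from the endoplasmic reticulum when sterols are low. SREBP2 binds sterol regulatory elements, usually beside NF-Y and Sp1 sites.

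Promoter sequences of RefSeq (build GRCm38.p6, 250 bases before to 50 after the annotated start) matched 5 of the 8 genes: Hmgcs1, Mvd, Idi1, Lss and Cyp51. Hmgcs1 held the sterol regulatory element form TCACNCCAC (N, any base), which was present on either strand in 1.24% of the 32851 promoters in the table. Its shorter form TCACNCCA, contained in the longer one, was found in Hmgcs1 alone among the 5, against 4.36% of all promoters. The window around the longer match is shown first because it is the only one in the set. It begins 137 bases before the start, lies on the gene's strand at chr13:119690204-119690233 (+), and is written 5′ to 3′ with the match in capitals:
Hmgcs1 sterol element: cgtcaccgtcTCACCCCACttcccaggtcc

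All 5 promoters held CCAAT, the core of an NF-Y site, within the 300 bases, compared with 37.4% of all promoters, and all 5 held the GC box GGGCGG, compared with 35.7%. The CCAAT nearest to the start and upstream of it is shown for each gene, because all 5 promoters held this box. The GC box, also held by all 5, is not printed. Each line runs 5′ to 3′ on the gene's own strand, and capitals mark the match, which reads ATTGG where it lies on the opposite strand. The windows lie at chr13:119690294-119690323 (+), chr8:122443432-122443461 (-), chr13:8885576-8885605 (+), chr10:76531531-76531560 (+) and chr5:4104709-4104738 (-), in the order printed, and the boxes begin 45, 27, 14, 62 and 29 bases before the start.
Hmgcs1 CCAAT box: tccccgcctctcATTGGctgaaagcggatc
Mvd CCAAT box: ccggccagcgggCCAATcatatggcagcgc
Idi1 CCAAT box: catggtccaaggtgccATTGGctggcgacc
Lss CCAAT box: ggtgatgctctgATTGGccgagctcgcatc
Cyp51 CCAAT box: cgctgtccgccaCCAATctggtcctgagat
Of the other sterol synthesis genes, 12 had a promoter in the table. The longer sterol element was found in 0 of these 12, the shorter in 1, CCAAT in 10 and the GC box in 10. A match describes these letters and does not show that a factor binds there.

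Comparing HGPS with WT at 2-mo asked whether the progeria genotype changed these enzymes' RNA. By edgeR's quasi-likelihood test, 6 of the 8 were higher in HGPS at an adjusted p under 0.05 and 0 were lower: Hmgcs1, Idi1, Fdps, Fdft1, Lss and Cyp51. The increases ran from 1.24-fold for Lss to 1.70-fold for Idi1. Of all genes tested, 22% were higher and 21.2% lower by the same rule. Levels are given as counts per 1000000 counts (CPM), corrected for library composition by TMM factors, and fold changes are fitted values. The median log2 fold change of the 8 was 0.43, against 0 over all genes. Under the study's stricter cut-offs (1.5-fold and adjusted p under 0.001), applied to this edgeR fit, Fdps alone passed, where 5.27% of all genes did so upward. The study applied them to DESeq2 results and reported far more genes than the 1445 that passed here. In the 24-mo WT aorta, only Lss was higher than at 2-mo. Leaving out 1 mouse at a time left between 4 and 7 of the 8 past the test in HGPS against 2-mo WT. It was 4 without HGPS replicate 4 or WT replicate 5, 7 without HGPS replicate 6, and 5 without the 95-day-old WT mouse.

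**Figure D1:**
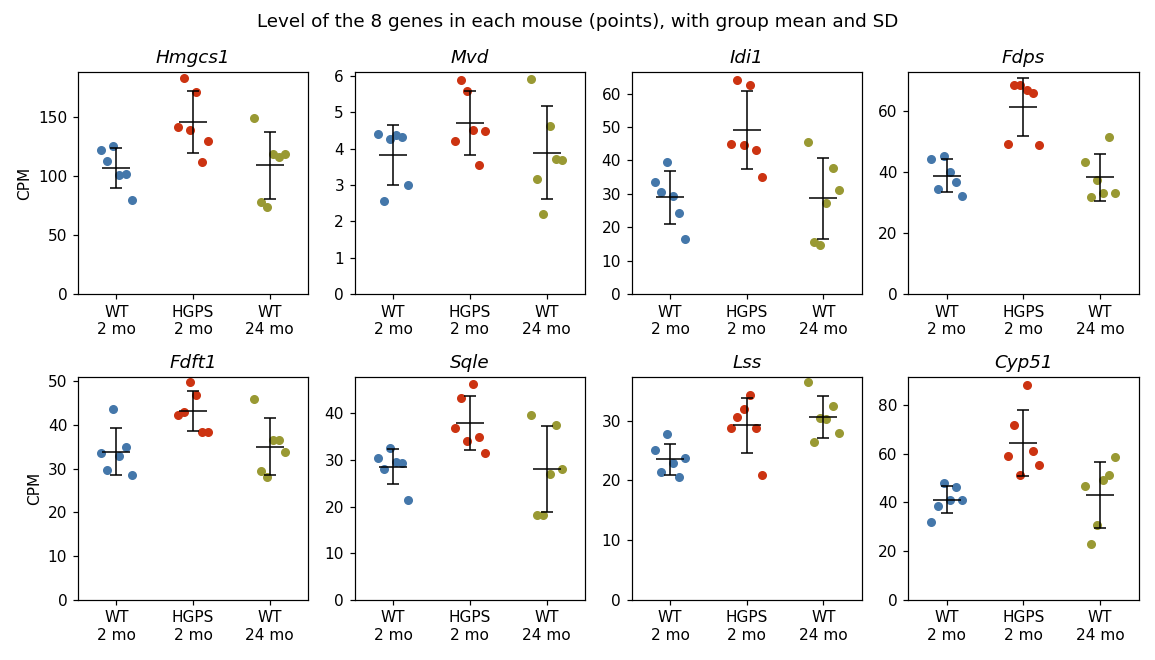
Level of each of the 8 genes in every mouse, in CPM (y axis from 0), in the 3 groups on the x axis; points are mice, and the black bar and whiskers are the group mean and SD (n = 6). The HGPS mice lie above all 2-mo WT mice for Fdps and Cyp51, and the 24-mo WT mice are the most scattered for Idi1 and Sqle.

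The first of the 8 in the pathway, Hmgcs1, joins acetyl-CoA and acetoacetyl-CoA to form HMG-CoA. Its level in HGPS had a lowest, median and highest value of 112, 141 and 183 CPM, and in 2-mo WT of 79.8, 108 and 126 CPM. The groups overlapped, with the lowest HGPS mouse below the highest WT mice. The log2 fold change was 0.44 (SE 0.16, adjusted p = 0.0285, 1.36-fold). In 24-mo WT the levels were 74.1, 118 and 149 CPM, spanning the 2-mo WT range on both sides, and the log2 difference between the WT ages was 0.02 (95% interval -0.31 to 0.35). The Hmgcs1 call was lost, with adjusted p up to 0.0747, when HGPS replicate 2 or 4 or WT replicate 4, 5 or 6 was left out. Of 12 other settings it was lost in 5, all with marker covariates, among them the Schwann cell covariate (log2 0.33, adjusted p = 0.0699). Over those 12 settings, the lowest log2 value was 0.12 and the highest adjusted p was 0.943.

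Mvd decarboxylates mevalonate diphosphate to isopentenyl diphosphate, the building block of all isoprenoids. It had the fewest counts of the 8, at 3.55, 4.49 and 5.88 CPM in HGPS (lowest, median and highest), 2.55, 4.30 and 4.41 CPM in 2-mo WT and 2.21, 3.71 and 5.92 CPM in 24-mo WT. All 3 groups overlapped, and a library held as few as 41 counts of it. The log2 fold change of HGPS against 2-mo WT was 0.30 (SE 0.20, adjusted p = 0.25) with a 95% interval of -0.13 to 0.73, which includes the values of Fdps and Cyp51. Idi1 isomerizes isopentenyl diphosphate to dimethylallyl diphosphate, and both forms are needed for chain growth. Its levels were 35.0, 44.7 and 64.0 CPM in HGPS against 16.4, 29.9 and 39.4 CPM in 2-mo WT, so that 5 of the HGPS mice lay above every WT mouse and 1 did not. Its log2 fold change of 0.76 was the largest of the 8 and among the least precise (SE 0.25, adjusted p = 0.018). In 24-mo WT, Idi1 ran from 14.6 to 45.6 CPM around a median of 29.2 CPM, and the log2 difference from 2-mo WT was -0.01 (95% interval -0.53 to 0.52). A processed pseudogene, Gm13502, shares 684 bases with Idi1 at 100% identity, and the near-identical genes of Idi1 held 3.13% as many counts as Idi1 itself.

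Fdps makes farnesyl diphosphate, the branch point between sterols and protein prenylation. The 6 HGPS mice ranged from 48.9 to 68.4 CPM with a median of 66.2 CPM, and the 2-mo WT mice from 32 to 45.1 CPM with a median of 38.3 CPM. The groups did not overlap, as was the case in the same direction for 11.0% of all genes tested. The log2 fold change was 0.66 (SE 0.13, adjusted p = 0.000367, 1.58-fold), and leaving out any 1 mouse kept it between 0.61 and 0.72. The 24-mo WT aorta, at 31.7, 35.2 and 51.3 CPM, differed from 2-mo WT by a log2 value of -0.01 (95% interval -0.28 to 0.25). HGPS mice 1 and 6, at 49.2 and 48.9 CPM, stood below the other 4, which lay between 65.7 and 68.4 CPM.

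The first enzyme committed to sterols is Fdft1, or squalene synthase. Its levels were 38.3, 42.7 and 49.9 CPM in HGPS and 28.5, 33.3 and 43.7 CPM in 2-mo WT, and 1 WT mouse (replicate 3) lay within the HGPS range. The log2 fold change was 0.35 (SE 0.12, adjusted p = 0.0184, 1.28-fold). Over 774 bases, the reference transcripts of Fdft1 and of Ctsb, the gene of the lysosomal protease cathepsin B on the opposite strand, are complementary. Ctsb held far more counts (mean 1090 CPM in HGPS and 858 CPM in 2-mo WT) and its log2 fold change was 0.34. The library kit was stranded, but the strand setting of the counting is not given in the sources used here, so the value of Fdft1 is uncertain to the extent that reads of Ctsb were assigned to it. The 24-mo WT level of Fdft1, at 28.1, 35.2 and 46 CPM, differed from 2-mo WT by a log2 value of 0.05 (95% interval -0.19 to 0.29).

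Sqle epoxidizes squalene, a rate-limiting step of the sterol branch. HGPS mice had 31.4, 35.9 and 46.4 CPM and 2-mo WT mice 21.4, 29.5 and 32.6 CPM, with the lowest HGPS mouse inside the WT range. Sqle did not pass, with a log2 fold change of 0.41 (SE 0.17, adjusted p = 0.0583, 95% interval 0.05 to 0.76). It passed without HGPS replicate 6 (adjusted p = 0.0471), in a fit of the 2 groups alone (0.00762) and with DESeq2 (0.0496). The 24-mo WT mice spread from 18.1 to 39.6 CPM with a median of 27.5 CPM, lower and higher than every 2-mo WT mouse at the extremes, and the log2 difference was -0.02 (95% interval -0.38 to 0.33).

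Lss closes squalene epoxide to lanosterol, the first sterol. Its 6 HGPS values ran from 20.9 to 34.3 CPM with a median of 29.7 CPM, and the 2-mo WT values from 20.5 to 27.7 CPM with a median of 23.3 CPM. The groups overlapped through HGPS mouse 6, and the log2 fold change was 0.31 (SE 0.10, adjusted p = 0.0211, 1.24-fold). It missed the threshold without HGPS replicate 3 or 4 or WT replicate 2 or 5, with adjusted p up to 0.0564. The last of the 8, Cyp51, removes the 14-alpha methyl group of lanosterol. It ran from 51.2 to 88.2 CPM in HGPS (median 60.0 CPM) and from 32.1 to 47.9 CPM in 2-mo WT (median 40.9 CPM), with no overlap. The log2 fold change was 0.65 (SE 0.18, adjusted p = 0.00687, 1.57-fold), and it stayed between 0.54 and 0.71 without any 1 mouse. In 24-mo WT, Cyp51 covered 23 to 58.6 CPM (median 47.8 CPM), with a log2 difference from 2-mo WT of 0.07 (95% interval -0.31 to 0.46).

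Compared per kilobase of 1 reference transcript each, the mean levels in 2-mo WT were ordered as follows. Hmgcs1 had 31 CPM per kb and Fdps 28, followed by Sqle and Cyp51 at 10.4 each, Idi1 at 9.56, Fdft1 at 9.16, Lss at 5.04 and Mvd at 2.18. In HGPS Fdps (44.3 CPM per kb) stood above Hmgcs1 (42.2), by less than the spread between mice. Hmgcs1 and Fdps, and the neighbours from Sqle to Fdft1, were within the spread between mice.

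The 24-mo against 2-mo WT comparison asked whether natural ageing gives the same differences. Lss was higher at 24-mo, with 26.5, 30.3 and 36.5 CPM (lowest, median and highest) and a log2 fold change of 0.38 (SE 0.11, adjusted p = 0.0222, 1.30-fold). The WT ages overlapped, because 1 of the 24-mo mice lay below the highest 2-mo mouse. The other 7 differed by log2 values between -0.02 and 0.07. Thus 1 of 8 was higher and 0 lower, where 6.29% of all genes were higher and 5.38% lower, and 0 of 8 passed the study cut-offs, where 1.28% of all genes passed upward. The older group lay entirely above the younger for 0 of the 8 and for 3.20% of all genes. The Lss call was lost without 2-mo WT replicate 2 (adjusted p = 0.0504) or 5 (0.0555).

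A direct test of HGPS against 24-mo WT was made in the same fit. Both tests of HGPS share the 6 HGPS mice, and both tests against 2-mo WT share those 6 controls, so the 3 sets of calls are not independent. In HGPS, 6 of the 8 were higher than at 24-mo and 0 lower: Fdps (log2 0.68, SE 0.13, adjusted p = 0.000226), Idi1 (0.77, SE 0.25, adjusted p = 0.0151), Cyp51 (0.58, SE 0.18, adjusted p = 0.0128), Hmgcs1 (0.42, SE 0.16), Sqle (0.43, SE 0.17) and Fdft1 (0.30, SE 0.11). Of all genes, 23.8% were higher and 23.6% lower, and HGPS mice lay entirely above 24-mo mice for 10.9% of genes and for 0 of the 8. Lss, at -0.07 (SE 0.10, 95% interval -0.29 to 0.15), and Mvd, at 0.27 (SE 0.20, 95% interval -0.15 to 0.70), did not pass. Only Fdps, Idi1 and Cyp51 still passed, 3 of 8, when HGPS replicate 2 or 4, or 24-mo replicate 2 or 3, was left out. In a fit of HGPS and 24-mo WT alone, 4 of the 8 passed, and Hmgcs1 (adjusted p = 0.0523) and Sqle (0.072) did not.

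**Figure D2:**
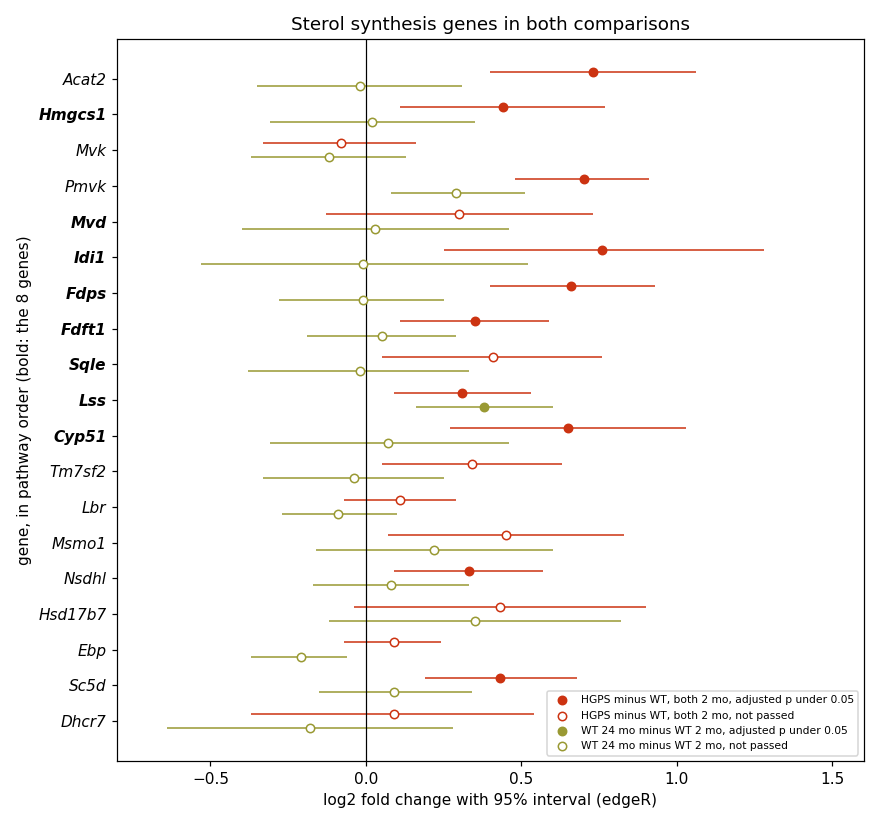
Log2 fold change (x axis) with its 95% interval for 19 genes of sterol synthesis in pathway order (y axis, the 8 genes in bold), for HGPS against WT at 2-mo (red) and 24-mo against 2-mo WT (olive); filled points passed the test. In red, 10 genes are filled, and in olive 1, Lss.

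The remaining sterol synthesis genes gave 4 higher and 0 lower of 13 tested in HGPS against 2-mo WT, with a median log2 fold change of 0.33. Beside this count and those of the lists below stand the shares of all genes tested. These were 22% higher and 21.2% lower in HGPS against 2-mo WT, and 6.29% higher and 5.38% lower with age. The 4 were Acat2, which forms acetoacetyl-CoA (0.73, SE 0.16), Pmvk, the phosphomevalonate kinase just before Mvd (0.70, SE 0.10), and 2 late sterol enzymes, Sc5d (0.43, SE 0.12) and Nsdhl (0.33, SE 0.12). Mvk, mevalonate kinase, was at -0.08 (SE 0.12). Msmo1 (0.45, adjusted p = 0.0528), Tm7sf2 (0.34, adjusted p = 0.0532) and Hsd17b7 (0.43, adjusted p = 0.129) did not pass, nor did Lbr, Ebp and Dhcr7, whose log2 fold changes were between 0.09 and 0.11. In the 24-mo aorta, 0 of the 13 passed in either direction. Idi2, the second isomerase, was at 0 in every library.

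Genes that sense sterols and control SREBP processing gave 2 higher and 0 lower of 10 in HGPS, with a median of -0.05. The count of higher genes was near the 22% of all genes, so it does not set this list apart. The ubiquitin ligase Rnf145 rose (0.26, SE 0.08). Srebf2, the gene of SREBP2, was at -0.22 (SE 0.13, adjusted p = 0.183), its escort Scap at -0.14 (SE 0.09) and the retention factor Insig1, itself an SREBP target, at 0.38 (SE 0.26, adjusted p = 0.243). Of 3 tested SREBP2 targets outside synthesis, Tmem97 rose (0.33, SE 0.12), whereas the sterol carrier Stard4 (-0.18, SE 0.26, 95% interval -0.72 to 0.37) did not pass. With age, Tmem97 fell (-0.47, SE 0.12, adjusted p = 0.0137), as did Mbtps1, the site-1 protease of SREBP (-0.21, SE 0.05).

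Enzymes that use isoprenoids or process the CaaX end of lamins gave 3 higher and 3 lower of 15 in HGPS, with a median of 0. This was close to the 22% and 21.2% of all genes, so the count sets these enzymes apart in neither direction. The lower genes were Fntb, the beta subunit of farnesyltransferase (-0.42, SE 0.12, adjusted p = 0.00643), Rabggta (-0.30, SE 0.10) and Dhdds (-0.27, SE 0.07), and the higher ones were Dolk (0.35, SE 0.09), Rabggtb (0.32, SE 0.07) and Nus1 (0.22, SE 0.08). Farnesyltransferase's other subunit Fnta (0.05, SE 0.06), the lamin A protease Zmpste24 (0.12, SE 0.07), the methyltransferase Icmt (0.00, SE 0.05) and Ggps1, which draws farnesyl diphosphate into geranylgeranyl diphosphate (-0.17, SE 0.08), did not pass. Icmt was higher with age (0.16, SE 0.05).

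Cholesterol uptake and lysosomal export genes gave 5 higher and 2 lower of 8 in HGPS. The scavenger receptors Cd36 (1.73, SE 0.33), Msr1 (1.11, SE 0.18) and Scarb1 (0.94, SE 0.21) rose, as did Npc2 (0.57, SE 0.06) and Lipa (0.38, SE 0.07). The 2 lower genes were Vldlr (-0.43, SE 0.08) and the lysosomal exporter Npc1 (-0.21, SE 0.06). Efflux genes gave 4 higher and 2 lower of 8: Apoc1 (1.94, SE 0.46), the liver X receptor Nr1h3 (1.03, SE 0.18), Apoe (0.71, SE 0.21) and Abcg1 (0.70, SE 0.21) rose, and Nr1h2 (-0.33, SE 0.11) and Mylip (-0.29, SE 0.09) fell, while Abca1 was at -0.05 (SE 0.11). Of 6 esterification and oxysterol genes, Soat1, which esterifies cholesterol (-0.29, SE 0.08), and Cyp27a1 (-0.31, SE 0.08) fell and Cyp39a1 rose (0.48, SE 0.15). With age, Nceh1 (0.67, SE 0.09) and Pltp (0.35, SE 0.11) were higher and 0 of the 8 uptake genes passed.

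Fatty acid synthesis genes, which respond mainly to SREBP1, gave 9 higher and 1 lower of 12 in HGPS, with a median log2 fold change of 1.18, against 0.43 for the 8; the difference between the lists was not tested. Those that rose included the elongase Elovl6 (2.34, SE 0.37), the desaturase Scd1 (1.94, SE 0.33), Thrsp (1.86, SE 0.44) and fatty acid synthase Fasn (1.63, SE 0.40), and Fads1 fell (-0.25, SE 0.09). The summed level of the 12 was 4260 to 11300 CPM in HGPS and 1980 to 3810 CPM in 2-mo WT. With age, Fads2 fell (-0.62, SE 0.10) and 0 passed as higher, with a list median of 0.34. Scd1, at 0.98 (SE 0.32, adjusted p = 0.0523), did not pass. The summed level in 24-mo WT was 2790 to 8430 CPM, overlapping both other groups.

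**Figure D3:**
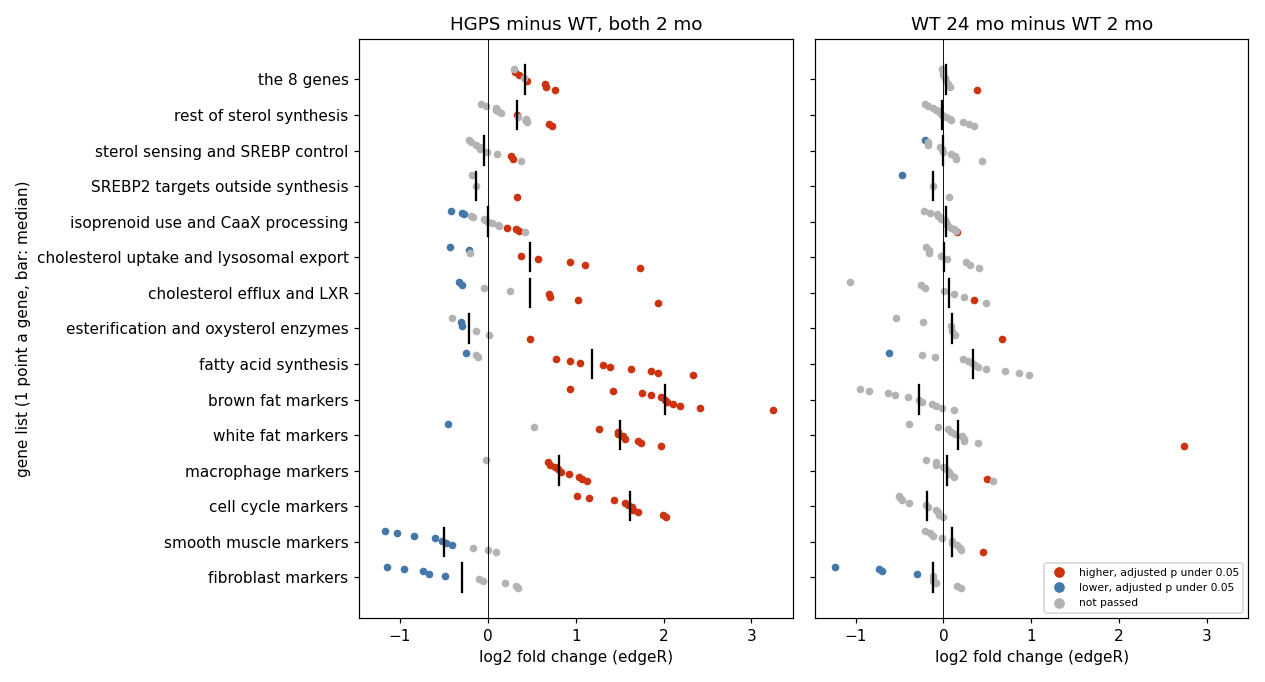
Log2 fold change (x axis) of every tested gene in each list (y axis), for HGPS against WT at 2-mo (left) and 24-mo against 2-mo WT (right); red and blue points passed the test as higher and lower, grey points did not, and black bars are list medians. In HGPS the median of the 8 genes is 0.43, that of fatty acid synthesis 1.18 and that of brown fat markers 2.02.

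Cell type markers moved with the genotype. All 11 tested brown fat markers were higher in HGPS (median log2 fold change 2.02), and their summed level was 510 to 1840 CPM against 123 to 664 CPM in 2-mo WT. Ucp1, the uncoupling protein that defines brown fat, rose by 2.19 (SE 0.74). White fat markers gave 8 higher and 1 lower of 10 (1610 to 4440 against 1160 to 2100 CPM), macrophage markers 9 higher of 10 (800 to 1160 against 486 to 712 CPM) and cell cycle markers 10 higher of 10 (43.4 to 75.1 against 13.1 to 23.2 CPM). Smooth muscle markers, led by Myh11 (-1.17, SE 0.11), gave 7 lower of 10, with a summed level of 20300 to 28200 CPM against 30700 to 39300 CPM, the highest sum of the marker lists in every group. Fibroblast markers gave 5 lower of 10 (2290 to 3050 against 3320 to 3700 CPM). Endothelial markers gave 1 higher of 10, Schwann cell markers 2 higher and 1 lower of 6, skeletal muscle markers 1 higher and 1 lower of 4 and T and B cell markers 1 higher of 4, each of the last 3 lists at under 50 CPM in sum. With age, Schwann cell markers gave 4 higher of 6 and fibroblast markers 4 lower of 10. White fat, smooth muscle, macrophage and skeletal muscle markers each gave 1 higher, and the other marker lists 0 in either direction. In such whole tissue, fewer cells of a type and less RNA per cell cannot be told apart.

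Fewer of the 8 genes passed when marker levels entered the fit. With brown and white fat scores as covariates, 2 of the 8 passed in HGPS against 2-mo WT, Fdps and Cyp51, and with brown fat and skeletal muscle scores Fdps alone passed. With smooth muscle and fibroblast scores 0 passed, in a fit that called 6 of all genes, and with macrophage and cell cycle scores 3 passed, Idi1, Fdps and Sqle, in a fit that called 111 genes. These scores differ between the genotypes themselves, so marker level and genotype cannot be told apart in these fits. In HGPS against 2-mo WT, log2 values over 12 settings ran from 0.47 to 1.66 for Idi1 and 0.54 to 1.24 for Fdps. These settings include the marker fits but not those leaving out 1 mouse. The range was 0.63 to 1.37 for Cyp51, 0.27 to 1.08 for Sqle and 0.12 to 0.72 for Hmgcs1. It was 0.18 to 0.63 for Fdft1, 0.27 to 0.73 for Lss and -0.10 to 0.59 for Mvd. For each of the 8, the range reached below and above the value of the main fit, so the settings did not all lower the log2 values.

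Mice of the same group share a genotype and a labelled age, and among them the 8 genes varied together. After the group means were removed, the 28 pairs of genes had Pearson correlations between 0.28 (Fdps and Cyp51) and 0.96 (Idi1 and Sqle), with a median of 0.65 over the 18 mice (Spearman median 0.64). The median was 0.56 when the 2 mice farthest from the median of the gene on the x axis were left out. The correlation of each gene with the mean of the other 7 was between 0.60 (Cyp51) and 0.93 (Idi1). The points of a pair share library and normalization. No p is given for relations among genes chosen together.

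**Figure D4:**
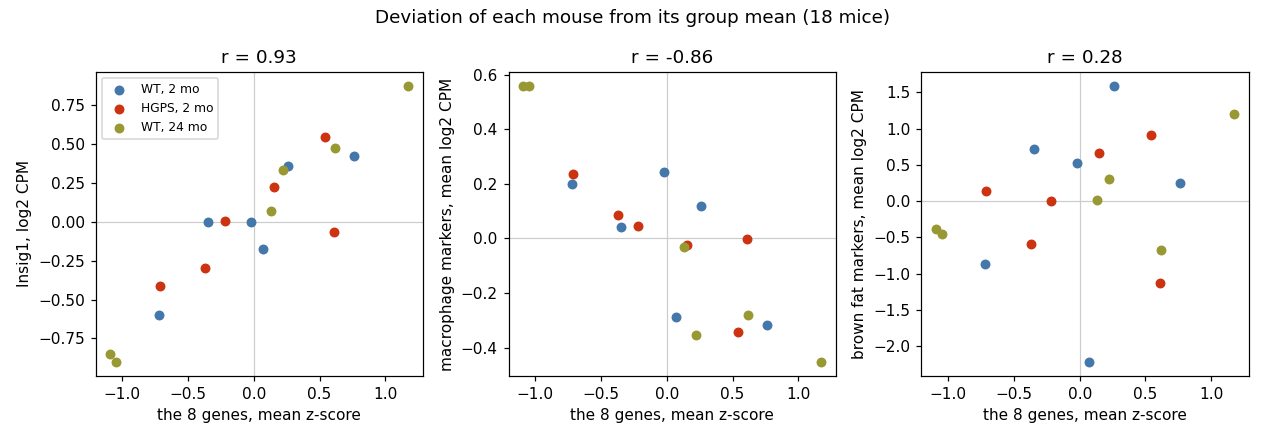
Deviation of each mouse from its group mean for the mean z-score of the 8 genes (x axes) against Insig1, macrophage markers and brown fat markers (y axes, log2 CPM); 1 point per mouse, coloured by group. The points follow a rising line for Insig1 (r = 0.93), a falling one for macrophage markers (r = -0.86) and no clear line for brown fat markers (r = 0.28).

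Single mice stood high or low for most of the 8 at once. In the 24-mo group, mouse 1 was highest for 6 of the 8 and mice 2 and 3 lowest for 3 and 5. In 2-mo WT, mouse 3 was highest for 7, and mouse 6, the 95-day-old one, lowest for 5. Among HGPS mice, mouse 2 was highest for 4 and mouse 4 for 3, and mouse 6 was lowest for 5. The mean log2 CPM of the 8 was 5.30 ± 0.20 in HGPS (SD, n = 6), 4.82 ± 0.20 in 2-mo WT and 4.85 ± 0.36 in 24-mo WT.

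The genes most like the 8 in these within-group deviations, of 10701 with a mean of at least 100 counts, included Scd2 and Hsd17b7 (r = 0.94), Insig1 (0.93), Epm2aip1 (0.92), Stard4 and Prkcd (0.91), Unk (0.90), and Zfand1 and Msmo1 (0.89). Of the 10 most alike, 6 are on the lists of sterol synthesis, SREBP control, SREBP2 targets or fatty acid synthesis. Insig1 followed the 8 among mice of a group (Spearman 0.89, r = 0.88 without the 2 farthest mice) and had r of 0.75 in HGPS, 0.88 in 2-mo WT and 0.99 in 24-mo WT, while its log2 fold change between HGPS and 2-mo WT, 0.38, did not pass.

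Macrophage markers ran the other way within groups. Their mean log2 CPM had r = -0.86 with the 8 genes over 18 mice (Spearman -0.81, and r = -0.77 without the 2 farthest mice), with r of -0.80 in HGPS, -0.63 in 2-mo WT and -0.96 in 24-mo WT. Between HGPS and 2-mo WT, by contrast, both the macrophage markers and 6 of the 8 genes were higher. Brown fat markers had r = 0.28 (Spearman 0.33), with r of 0.01 in HGPS, 0.24 in 2-mo WT and 0.63 in 24-mo WT. White fat markers had r = 0.39 (Spearman 0.43). Cell cycle markers also ran the other way (r = -0.56, Spearman -0.49), and the fatty acid synthesis genes ran with the 8 (r = 0.54, Spearman 0.5). These were among 17 relations computed for the 8 genes. The part of each cell type in the differences was not tested beyond the covariate fits.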

How the data were processed

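Total RNA was depleted of ribosomal RNA, prepared with a stranded kit and sequenced in pairs by the authors, who quantified it with salmon against GENCODE mouse transcripts, summed to genes with tximport and tested it with DESeq2. The submitters' processing notes also list Bowtie 0.12.2 and the builds mm10 and GRCm38, with no role. The deposited values are estimated counts per gene, rounded to whole numbers. Symbols came from GENCODE M21, which held 54107 of the 54281 IDs. Genes reaching 10 counts in 6 or more mice were fitted in 1 model of the 18 mice with edgeR 4.0.16 (TMM, quasi-likelihood test, Benjamini-Hochberg over 15210 genes) in R 4.3.3; a gene passed at an adjusted p under 0.05. The fit was tested on simulated data. CPM are TMM-scaled; log2 CPM used a prior count of 2. Near-identical transcripts (95% identity over 200 bases) were found with BLAST+ 2.17.0. Alternatives included DESeq2 1.42.0, other normalizations and filters, marker covariates, a replicate block and leaving out each mouse.

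The members and gene lists were chosen with earlier results of these data known. The genes named were all 8 members, those of the sterol, SREBP and target lists described, and the 10 genes most like the members. From other lists, 11 set genes were named, plus up to 3 per list and comparison with the largest passing change. Fnta, Dhdds, Nus1, Npc2, Lipa, Vldlr, Mylip, Fads1, Myh11, Ctsb and Gm13502 were named after their values were seen. Some listed genes enter the counts but are not reported here by name. Replicate numbers denote different animals and were not taken as pairs in the main fit. Deviations of same-numbered mice correlated between -0.16 and 0.17. Differently numbered mice were not compared, so these values cannot settle whether the numbers mark shared handling. Of 45 within-group library pairs, none agreed within sampling noise (chi-square per degree of freedom 7.64 to 93.6).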

Additional observations from a re-analysis of the deposited data

Results flagged for a closer look

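In 24 groups of 6 mice (the 8 genes in 3 groups), 2 held a mouse whose distance to the nearest other mouse was large against the range of its group. The CPM of Sqle in 2-mo WT mouse 6, the 95-day-old one, was 21.4, the lowest of its group, with a gap of 0.648 of the range (critical value 0.625). The CPM of Lss in HGPS mouse 6 was 20.9, the lowest of its group, with a gap of 0.643 of the range. Chance alone marks about 1 in 20 groups.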

How the results depend on the processing

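At the study's cut-offs, applied to the edgeR fit, 1445 genes (1 of the 8) passed in HGPS against 2-mo WT. For 24-mo against 2-mo WT it was 304 (0), and for HGPS against 24-mo WT 1845 (1). These stand in place of 6567 (6), 1775 (1) and 7201 (6). In the same order, brown fat and skeletal muscle covariates gave 3245 (1), 826 (0) and 3272 (0); brown and white fat 3416 (2) and 3994 (1) in the HGPS comparisons; macrophage and cell cycle 111 (3) and 213 (2) there; and smooth muscle and fibroblast 6 (0), 175 (0) and 164 (0). A Schwann cell covariate gave 776 genes (0) for age. These covariates differ between groups, so a lost call may be a loss of precision; the cause was not tested. DESeq2, RLE or upper-quartile factors, other count filters, the 2 groups alone and the block moved none of these counts by over 1.5 times. HGPS against 24-mo WT alone gave 4 of the 8. With the replicate block, the counts were 6364 (6), 1570 (1) and 6973 (6). Leaving out 1 mouse gave 5879 to 6632 genes (4 to 7 of the 8), 1422 to 1758 (0 to 1) and 6647 to 7205 (3 to 6).

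The sign of small log2 differences changed as follows. For HGPS against 2-mo WT, Mvd was -0.10 with brown fat and skeletal muscle, -0.04 with brown and white fat and -0.01 with smooth muscle and fibroblast covariates. For HGPS against 24-mo WT, Lss was 0.02 with Schwann cell, 0.39 with macrophage and cell cycle and 0.23 with smooth muscle and fibroblast covariates, and -0.12 to 0.01 without 1 mouse. For age, Idi1 was 0.00 with upper-quartile factors or a filter of 50 counts and 0.01 with macrophage and cell cycle covariates. With brown fat and skeletal muscle, Idi1 was 0.10, Mvd -0.14 and Fdps 0.17. With brown and white fat, Hmgcs1 was -0.07, Mvd -0.21, Fdps 0.03, Fdft1 -0.01 and Cyp51 -0.01. With Schwann cell markers, Hmgcs1 was -0.36, Mvd -0.35 and Fdft1 -0.19. With smooth muscle and fibroblast markers, Hmgcs1 was -0.32, Mvd -0.18, Fdft1 -0.12 and Cyp51 -0.21. Without 1 mouse, the age difference ranged from -0.19 to 0.13 for Idi1, -0.12 to 0.03 for Fdps, -0.15 to 0.08 for Sqle, -0.13 to 0.15 for Mvd, -0.08 to 0.11 for Hmgcs1, -0.04 to 0.14 for Fdft1 and -0.03 to 0.20 for Cyp51. Mvd had the fewest counts of the 8, at 41 to 144 a library.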
